A study of Mus musculus with 8 samples.

Results

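The probes described here are those of a mouse expression array that were designed against RefSeq transcripts annotated as non-coding, whose accessions carry the prefix NR_. Of 2477 such probes, 1125 were well above background, by the scanner software's own call, on both arrays of at least 1 of the 4 groups. The 5 probes for H19 and Meg3 were set aside, which left 1120 members (45.2% of the NR_ probes) out of 56605 non-control probes. A further 6 carried an outlier flag on some array and were not fitted, so every value below is over 1114 probes. RefSeq's gene table gave 1063 of them 1 gene symbol, 995 genes in all, and 51 had no match there. By RefSeq gene type, 826 were long non-coding RNAs, 170 transcribed pseudogenes, 29 small or structural RNAs and 38 non-coding variants of protein-coding genes.

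Male C57BL/6 mice entered the feeding study at 6 weeks of age. They received chow or a diet with 60% fat, for 12 or 24 weeks. This gave the groups C12 (chow, 12 weeks), HF12 (high-fat, 12 weeks), C24 (chow, 24 weeks) and HF24 (high-fat, 24 weeks), with 2 arrays each. All groups share the strain, the sex and the depot: abdominal subcutaneous fat was digested with collagenase, and the cells that attached to plastic were passaged 2 or 3 times and named adipose-derived mesenchymal stem cells by the submitters. The labels do not say whether the 2 arrays of a group came from separate animals or cultures, so p-values cover only how far these arrays differ from each other, which may be a technical spread. The sample titles call the 12-week groups young and the 24-week groups old, so feeding time and the age of the mice cannot be told apart. Feeding time also coincided with the row of the slide and diet with its column, so these cannot be told apart either.

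Non-coding RNAs differ from messenger RNAs in that the transcript, or a piece cut from it, acts without being translated. Small nucleolar RNA hosts are spliced transcripts whose introns carry small nucleolar RNAs, the guides that direct methylation and pseudouridylation of ribosomal RNA; the spliced exons are often short-lived. Other long RNAs build nuclear bodies (Neat1 and paraspeckles), silence neighbouring imprinted genes (Kcnq1ot1, Airn) or serve as precursors of microRNAs, short RNAs that pair with messenger RNAs through a seed at their 5′ end.

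The array measured the host transcripts and not the microRNAs cut from them, which are shown so that each host can be read by its product. Of the member hosts, 6 were searched for mature microRNAs on the same strand in RefSeq GRCm38.p6, and each encloses between 2 (Mir22hg) and 19 (Mirg). Mir99ahg, also described below, was not searched. Capitals mark the seed, bases 2 to 8. The members of the Dleu2 pair share 1 seed, as do miR-453 and miR-496a-5p within Mirg.
miR-100-5p, in Mir100hg, chr9:41531437-41531458, plus strand: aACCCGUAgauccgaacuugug
miR-125b-5p, in Mir100hg, chr9:41581940-41581961, plus strand: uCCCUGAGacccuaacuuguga
miR-199a-5p, in Dnm3os, chr1:162217844-162217866, plus strand: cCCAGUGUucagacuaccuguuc
miR-214-3p, in Dnm3os, chr1:162223438-162223459, plus strand: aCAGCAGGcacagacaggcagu
miR-15a-5p, in Dleu2, chr14:61632075-61632096, minus strand: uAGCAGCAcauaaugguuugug
miR-16-5p, in Dleu2, chr14:61631936-61631957, minus strand: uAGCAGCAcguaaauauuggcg
miR-453, in Mirg, chr12:109735669-109735692, plus strand: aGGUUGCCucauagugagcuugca
miR-496a-5p, in Mirg, chr12:109739132-109739152, plus strand: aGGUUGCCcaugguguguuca
miR-370-3p, in Rian, chr12:109618305-109618326, plus strand: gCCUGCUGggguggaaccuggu

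Small nucleolar RNA hosts are known for starting their transcripts at a run of pyrimidines, as ribosomal protein genes do, so the 60 bases around the annotated start are shown for 6 hosts, 30 before the start and 30 from it. Capitals mark a run of at least 5 C or T letters that begins with C within 5 bases of the start. RefSeq GRCm38.p6 windows were at hand for 12 of the 15 host genes among the members, and 7 of those (58.3%) held such a run, against 4989 of 27025 gene starts (18.5%). A match describes these letters only, and its absence says nothing of the start that was used.
Snhg8, chr3:123508307-123508366, minus strand: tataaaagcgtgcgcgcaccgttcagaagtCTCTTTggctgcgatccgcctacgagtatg
Snhg12, chr4:132308648-132308707, plus strand: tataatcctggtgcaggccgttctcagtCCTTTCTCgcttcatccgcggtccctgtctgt
Snhg7, chr2:26640215-26640274, minus strand: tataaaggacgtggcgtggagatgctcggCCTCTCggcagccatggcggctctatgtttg
Snhg1, chr19:8723457-8723516, plus strand: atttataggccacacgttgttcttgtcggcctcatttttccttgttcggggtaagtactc
Snhg5, chr9:88522868-88522927, minus strand: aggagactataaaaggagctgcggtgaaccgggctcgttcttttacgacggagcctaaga
Snhg16, chr11:116671630-116671689, plus strand: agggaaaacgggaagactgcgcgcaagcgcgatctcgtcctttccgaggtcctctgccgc

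On the 8 arrays 57.6% to 67.2% of the non-control probes were well above background, the median intensity was 90.1 to 110.9 and 0 spots were saturated. Markers of stromal cells were detected on every array, 11 of 12 in the list, with mean levels of 4.57 to 5.24; Ly6a, a marker of these progenitors in mice, did not meet the background rule. Macrophage markers were also present, 13 or 14 of 14 well above background in every group, as were 8 skeletal muscle markers and, in every group but HF24 (7 of 10), all 10 adipocyte markers. Levels throughout are log2 processed signal minus the array's own 75th percentile, so 0 is the level below which 75% of that array's probes lie, and differences are log2 differences of group means with the standard error (SE, 2 arrays a group) of a limma fit over all 37650 probes kept by the same background rule. A probe was called where its Benjamini-Hochberg adjusted p, taken over all those probes, was under 0.05.

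The non-coding RNA probes were dimmer than the probes for coding transcripts. Their median level over the 8 arrays was -2.77, against -0.12 for the 22978 NM_ probes that met the same rule, which is 77.5% of the NM_ probes on the array. The middle of the non-coding distribution, from its 25th to its 75th percentile, ran from -4.33 to -0.61, and that of the NM_ probes from -2.63 to 2.13. The classes lay apart, with medians of -3.12 for long non-coding RNAs, -1.88 for variants of coding genes, -1.58 for transcribed pseudogenes and 0.62 for small or structural RNAs. At the edge of the rule, the 5 dimmest members reached -5.51 to -5.45 in their highest group, and the 5 brightest NR_ probes that missed the rule reached -4.04 to -3.51.

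**Figure D1:**
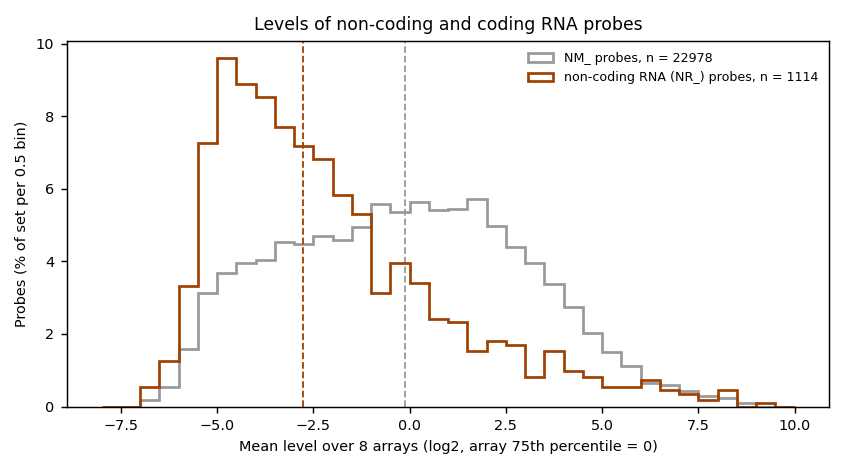
Mean level over the 8 arrays (log2, with each array's 75th percentile at 0) of 1114 non-coding RNA probes and 22978 NM_ probes, as the percentage of each set in bins of 0.5; dashed lines are medians. The non-coding probes peak near the dim end, with a median of -2.77 against -0.12.

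Fewer non-coding RNA probes stood above background after 24 weeks than after 12. In C12 1044 of the 1114 were well above background on both arrays, in HF12 1066, in C24 903 and in HF24 853. Per array the share of members was 95.2% to 95.5% in C12 and 96.1% to 97.2% in HF12, and 82.5% to 86.4% in C24 and 78.3% to 81.8% in HF24, so the feeding times did not overlap. Over all NR_ probes of the array, members or not, the share was 43.8% to 46.5% after 12 weeks of feeding and 36.8% to 40.6% after 24. Detection fell over the whole array too. Of all non-control probes 65.1% to 67.2% were above background after 12 weeks and 57.6% to 62.4% after 24. Of the NM_ probes kept by the same rule, 97.0%, 97.8%, 92.2% and 89.99% were above background on both arrays of C12, HF12, C24 and HF24, against 93.7%, 95.7%, 81.1% and 76.6% of the members. A set of 106 members was above background in both 12-week groups and in neither 24-week group, and 1 showed the reverse. The matching counts over all kept probes were not taken. Members were dimmer than the NM_ probes, and the shares above were not matched for level. Since 86 members passed the rule in 1 group only, these had to differ, and counts over members are read with that in mind.

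High-fat diet and chow differed in 319 of the 1114 members at 12 weeks (28.6%), 131 higher and 188 lower, where 30.1% of all kept probes were called, 14.1% higher and 16.0% lower. At 24 weeks 319 were again called (28.6%), 154 higher and 165 lower, against a background of 31.5% (14.3% higher, 17.1% lower). The share of the 24-week calls that were higher, 48.3%, depended on the scaling: it was 58.7% after quantile normalization (195 higher, 137 lower), 59.5% after normexp correction (195 and 133) and 37.5% with the percentile taken over probes detected on all arrays (115 and 192). With time on chow 525 members were called (47.1%, background 45.7%), 231 higher and 294 lower (background 24.5% and 21.2%). With time on high-fat diet 446 were called (40.0%, background 45.2%), 194 higher and 252 lower (background 22.3% and 22.8%), and the share higher moved from 43.5% to 33.2% (154 and 310) with the percentile over probes detected on all arrays, to 50.6% (199 and 194) after quantile normalization, to 51.6% (207 and 194) after normexp correction and to 52.0% (193 and 178) when only probes above background on all arrays were fitted. The members' share called in either direction lay near the background, but was lower with time on high-fat diet. Of members 20.7% rose and 26.4% fell with time on chow, and 17.4% and 22.6% on high-fat diet. Of NM_ probes 26.8% rose and 21.9% fell on chow, and 26.8% and 19.25% on high-fat diet. By diet 11.8% of members were higher and 16.9% lower at 12 weeks, against 16.3% and 16.4% of NM_ probes. At 24 weeks it was 13.8% and 14.8%, against 17.7% and 11.95%. The sets were not matched for level. Calls of at least 2-fold were fewer. At 12 weeks 36 members were called at least 2-fold higher and 29 lower on high-fat diet (3.23% and 2.60%, background 4.04% and 3.03%), and at 24 weeks 17 higher and 42 lower (1.53% and 3.77%, background 1.45% and 5.13%). With time on chow 39 rose and 107 fell by that much (3.50% and 9.61%, background 4.55% and 5.96%), and on high-fat diet 23 and 69 (2.06% and 6.19%, background 2.36% and 6.61%). In these cells, measured in bulk, fewer cells of a type and less RNA per cell cannot be told apart.

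Transcribed pseudogenes and long non-coding RNAs were called in different directions with time. Of the 170 pseudogene probes 65 rose and 29 fell on chow, and 60 rose and 25 fell on high-fat diet. Of the 826 long non-coding RNA probes 144 rose and 241 fell on chow, and 108 rose and 207 fell on high-fat diet. Among all kept probes 24.5% rose and 21.2% fell with time on chow, and 22.3% rose and 22.8% fell on high-fat diet. The classes also differed in brightness, and among the brightest 372 members, above a level of -1.52, 112 rose and 91 fell on chow. Among the dimmest 371, under -3.87, 51 rose and 88 fell. The NM_ probes in the same dim range also fell more often than they rose, 706 against 475 on chow. Between these 2 levels members and NM_ probes went different ways on chow. Of 371 members 68 rose and 115 fell, and of 4848 NM_ probes 1238 rose and 1054 fell. The part of brightness in the directions of the classes was not tested. Many pseudogenes are near copies of coding genes, and their probes may read those genes as well.

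The diet difference itself changed between 12 and 24 weeks for 339 members (30.4%), where 28.0% of all kept probes were called for this interaction. It was more positive at 24 weeks for 183 and more negative for 156 (background 12.9% and 15.1%). This balance depended on the scaling: 211 and 129 after quantile normalization, and 219 and 132 after normexp correction. With the percentile taken over probes detected on all arrays it was 161 and 167. Changes of the difference by at least 2-fold were called for 63 members upward and 70 downward, 5.66% and 6.28% of them, against 3.25% and 6.48% of all kept probes. Diet called 146 members at both times: 44 were higher at both, 45 lower at both and 57 turned, of which 41 were lower at 12 weeks and higher at 24. Time called 105 members higher and 112 lower on both diets, and 60 in opposite directions. These comparisons share groups, so their calls are not independent. In all, 388 members were called in none of the 4 simple comparisons and 82 in all 4. These overlaps were counted for members only, so they cannot be set against those of all kept probes.

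**Figure D2:**
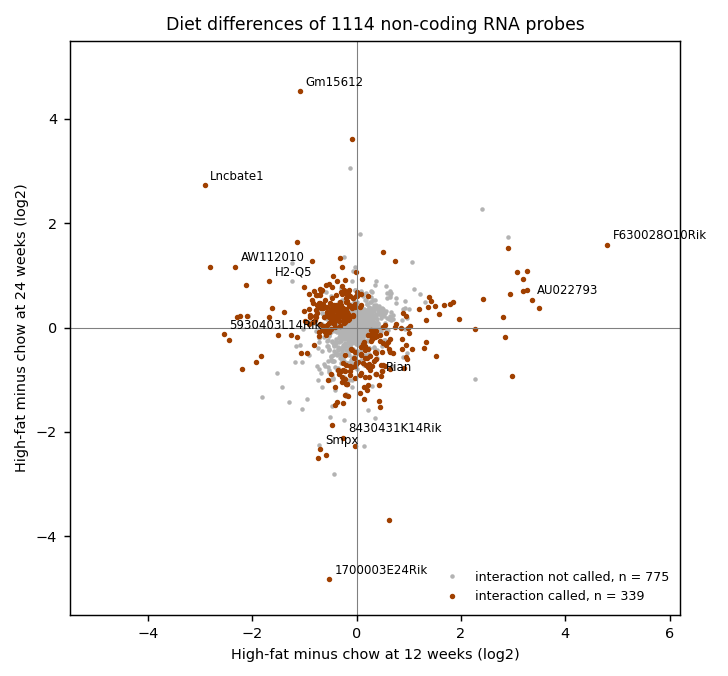
High-fat minus chow difference (log2) at 12 weeks (horizontal) and 24 weeks (vertical) for 1114 non-coding RNA probes, 1 point each; brown points, n = 339, are those whose difference changed between the times by the interaction test. F630028O10Rik lies far to the right (4.80 and 1.59), AW112010 and H2-Q5 lie left of and above 0, and 1700003E24Rik lies at the bottom (-4.82 at 24 weeks).

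Among the named small nucleolar RNA hosts more probes rose than fell with time on both diets. Of 16 probes for 15 host genes, 8 rose and 3 fell on chow between 12 and 24 weeks, with a median difference of 0.27, and 9 rose and 1 fell on high-fat diet, with a median of 0.27; the median of all kept probes was 0.03 and 0.00, of which 24.5% and 22.3% rose and 21.2% and 22.8% fell. By position, 22 members span a small nucleolar RNA gene in RefSeq, on either strand, and carry no Snhg name. Epb41l4aos, a named host, was not kept out of this set. These 22 did not show the direction of the named hosts on chow, where 6 rose and 7 fell (median -0.01). On high-fat diet 9 rose and 4 fell (median 0.19). The 3 falls on chow became 1 without C12 array 2, without C24 array 2 or without either HF24 array.

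Snhg1, which carries a series of C/D box small nucleolar RNAs in its introns, read 0.43 and 0.54 on the C12 arrays, 0.58 and 0.66 on HF12, 1.09 and 1.08 on C24 and 1.14 on both HF24 arrays. Every 24-week array lay above every 12-week array, and the diets lay close together at 24 weeks. The rise was 0.60 ± 0.06 on chow (adjusted p = 0.00075, limma, Benjamini-Hochberg) and 0.52 ± 0.06 on high-fat diet (adjusted p = 0.0016). Snhg4, host of Snora74a, was dimmer and changed more: its arrays read -2.81 and -2.66 in C12, -2.44 and -2.42 in HF12, -1.69 and -1.66 in C24, and -1.81 and -1.64 in HF24. The feeding times again did not overlap. It rose by 1.06 ± 0.08 on chow (adjusted p = 0.00024) and by 0.70 ± 0.08 on high-fat diet (adjusted p = 0.0014).

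Snhg6, host of Snord87, rose by 0.51 ± 0.09 and 0.49 ± 0.09 on chow and high-fat diet. Snhg8, host of Snora24 and one of the hosts with a pyrimidine run at its start, rose by 0.55 ± 0.08 and 0.49 ± 0.08. Snhg16, which carries Snord1a, Snord1b and Snord1c and showed no run in its window, rose by 0.52 ± 0.08 and 0.47 ± 0.08. These 3 hosts were called in both time comparisons and in neither diet comparison, and each of those time calls held when any 1 of the 8 arrays was left out. Among the 3 hosts printed with the run, Snhg8 and Snhg12 rose on both diets, while Snhg7 fell by 0.48 on the log2 scale with time on high-fat diet. The Snhg12 call on high-fat diet (0.26) was lost in 3 of the fits with 1 array left out. The 3 printed without it, Snhg1, Snhg5 and Snhg16, rose on both diets.

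Calls by diet were no more frequent among the hosts than elsewhere. Of the 16 probes 2 were higher and 1 lower on high-fat diet at 12 weeks, 3 in all against 30.1% of all kept probes, and at 24 weeks 4 were higher and 1 lower, 5 in all against 31.5%. Snhg12, host of Snora16a, Snora44, Snora61 and Snord99, was 0.35 ± 0.06 higher on high-fat diet at 12 weeks (adjusted p = 0.0060) and rose by 0.42 ± 0.06 with time on chow. Snhg20 read 1.23 and 1.20 in C24 and 1.63 and 1.69 in HF24, with no overlap, a difference of 0.45 ± 0.06 (adjusted p = 0.0038); at 12 weeks its diet difference was -0.04 ± 0.06. Snhg7, host of Snora17 and Snora43, went the other way, with 4.0 and 3.85 in C24 against 3.27 and 3.42 in HF24, a difference of -0.58 ± 0.10 (adjusted p = 0.0092). The 4 higher at 24 weeks became 1, Snhg20, when either C24 array or either HF24 array was left out.

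Snhg5 rose by 0.82 ± 0.08 with time on high-fat diet (adjusted p = 0.00068), from 2.52 and 2.66 to 3.43 and 3.40. On chow its rise of 0.35 ± 0.08 was lost without C12 array 2 (0.28) or C24 array 1 (0.33). Snhg9, host of Snora78, was called in none of the 4 simple comparisons, with differences between -0.02 and 0.11, and so was Epb41l4aos, with 0.01 to 0.26. The 2 probes for Snhg15 differed by 0.36 ± 0.09 and 0.16 ± 0.06 with time on chow, of which the first was called; that call was lost without C12 array 2 (0.24), C24 array 1 (0.31) or C24 array 2 (0.40).

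**Figure D3:**
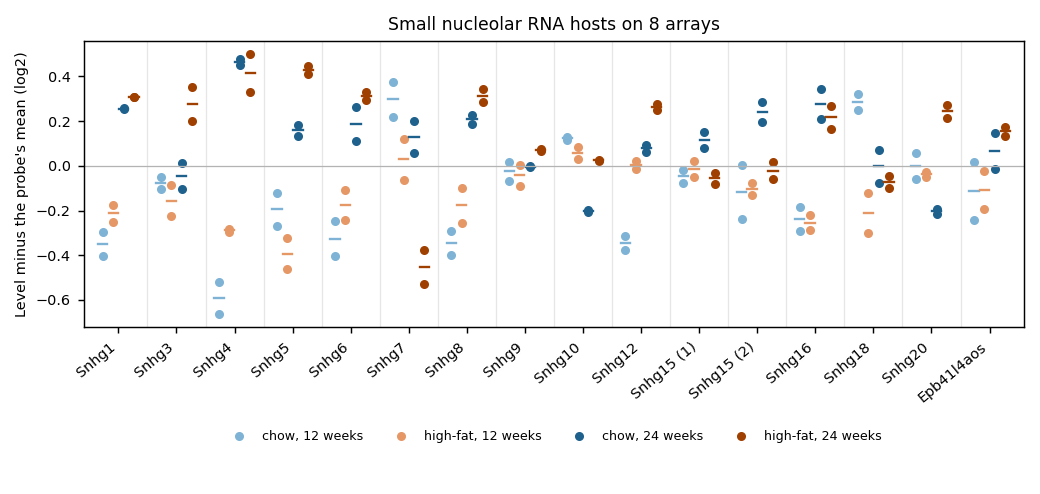
Level of each small nucleolar RNA host probe on the 8 arrays minus that probe's mean over the arrays (log2); points are arrays, bars are group means of 2. For Snhg1, Snhg4, Snhg6, Snhg8 and Snhg16 both 24-week groups (dark) lie above both 12-week groups (pale), and for Snhg7 the high-fat 24-week arrays lie lowest.

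The coding genes for the proteins that small nucleolar RNAs assemble with rose over the same interval. Of 16 genes of the small nucleolar ribonucleoprotein core and its assembly, 14 rose and 1 fell with time on chow (median 0.46, 24.5% of all kept probes higher), and 15 rose and 0 fell on high-fat diet (median 0.62, 22.3% higher). Nop56, a core protein of the C/D box particles, rose by 0.73 ± 0.07 and 0.78 ± 0.07, and Dkc1, the pseudouridine synthase of the H/ACA box particles, by 0.75 ± 0.09 and 0.89 ± 0.09. The gene that fell on chow was Nop10, another H/ACA core protein, at -0.31 ± 0.06. Of 19 genes for RNA polymerase I and ribosome biogenesis 11 rose on chow and 15 on high-fat diet, and 0 fell. The 15 became 10 without HF24 array 1. Among NM_ probes, the nearer reference for coding genes, 26.8% rose in each time comparison, and 21.9% and 19.25% fell on chow and high-fat diet. Of the 14873 NM_ probes above a level of -1.52, 4441 rose on chow and 5027 on high-fat diet. Of 10 genes of nonsense-mediated decay, the pathway that degrades many spliced host transcripts, 1 rose and 1 fell on chow, and 5 rose and 0 fell on high-fat diet. Proliferation markers did not follow this order: 1 of 10 rose and 5 fell with time on chow, 8 rose on high-fat diet, and 10 of 10 were higher on high-fat diet at 24 weeks. Their part in the host values was not tested.

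The small RNAs themselves are short and mostly lack a poly(A) tail, and the labelling kit used primes from poly(A), so these 21 probes may read longer precursors; the probes cannot tell them apart. With time on high-fat diet 9 rose and 1 fell (median 0.28), where 22.3% of all kept probes rose and 22.8% fell, and on chow 3 rose and 3 fell (median 0.02). Snora47, an H/ACA box guide, read -2.50 and -2.56 in C12, -2.33 and -2.52 in HF12, -1.89 and -2.05 in C24 and -1.12 and -0.95 in HF24. HF24 was highest without overlap. It rose by 1.39 ± 0.10 with time on high-fat diet (adjusted p = 0.00026) and by 0.56 ± 0.10 on chow, and was 0.93 ± 0.10 higher on high-fat diet at 24 weeks (adjusted p = 0.0015).

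Scarna13, a guide RNA of Cajal bodies, was 0.73 ± 0.09 higher in HF24 than in C24 (adjusted p = 0.0019), and 0.58 ± 0.09 higher in HF24 than in HF12. Snora78 rose by 1.12 ± 0.17 with time on high-fat diet (adjusted p = 0.0033), while Snhg9, the host transcript around it, was not called. Snord7, a C/D box guide, fell by 0.61 on the log2 scale with time on chow (SE 0.10, adjusted p = 0.0035). At 24 weeks 4 of the 21 were higher on high-fat diet and 0 lower, and at 12 weeks 0 were higher and 3 lower; these counts lie near the shares of all kept probes, 14.3% higher at 24 weeks and 16.0% lower at 12 weeks. The RNA subunits of RNase MRP (Rmrp) and RNase P (Rpph1), the transcription regulator 7SK (Rn7sk) and the telomerase template (Terc) were called in none of the 4 simple comparisons. The largest of these differences were -0.38 ± 0.13 for Rn7sk between HF12 and C12 and -0.30 ± 0.36 for Terc between HF24 and HF12; the C24 arrays of Terc read -2.65 and -3.80.

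More nuclear and regulatory long RNA probes were lower than higher in HF24, against C24 and against HF12. Of 21 probes for this list 11 were lower and 2, Dleu2 among them, higher on high-fat diet at 24 weeks (median -0.22, all kept probes 0.03, with 17.1% lower), and 11 fell and 1 rose with time on high-fat diet (median -0.28, with 22.8% of all kept probes lower). At 12 weeks 7 were lower on high-fat diet (16.0% of all kept probes) and 1 higher, but the 7 became 3 without C12 array 1 and 4 without either HF12 array. With time on chow 6 rose and 6 fell, and the 6 falls became 3 without C12 array 1 or C24 array 2. The list holds 4 probes for Kcnq1ot1, described with the imprinted RNAs, 4 for Norad and 2 each for Neat1, Miat, Lncpint and Pvt1, so its probes are not separate genes.

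Neat1, the scaffold of paraspeckles, is covered by 2 probes. The brighter read -0.10 and 0.17 in C12, 0.30 and 0.29 in HF12, 0.50 and 0.49 in C24 and -0.37 and -0.26 in HF24. HF24 lay lowest and C24 highest. The HF24 minus C24 difference was -0.81 ± 0.10 (adjusted p = 0.0021), and the second probe gave -0.54 ± 0.07 (adjusted p = 0.0029). Both probes rose with time on chow, by 0.46 ± 0.10 and 0.35 ± 0.07, and fell on high-fat diet, by 0.61 and 0.44 on the log2 scale. Of 8 genes for paraspeckle proteins 6 rose and 0 fell with time on high-fat diet (median 0.39), where 26.8% of NM_ probes rose. Among the 6 were Nono (0.31 ± 0.05) and Sfpq (0.44 ± 0.07). Pspc1 was 0.23 ± 0.09 higher and was not called.

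Miat, a nuclear RNA first tied to heart disease, has 2 probes that did not read alike. One was at -2.25 and -2.27 in C24 against -4.70 and -4.35 in HF24, a difference of -2.27 ± 0.12 (adjusted p = 0.00018), and rose by 1.04 ± 0.12 with time on chow. The other, dimmer, gave 0.10 ± 0.24 and 0.48 ± 0.24 for the same comparisons and was called in neither. They may read different parts or isoforms of the transcript, which the data do not separate.

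Dleu2, the precursor of miR-15a and miR-16-1, fell with time. Its arrays read -0.52 and -0.70 in C12, -0.97 and -0.90 in HF12, -1.98 on both C24 arrays and -1.52 and -1.47 in HF24. The feeding times did not overlap. The fall was -1.37 ± 0.08 on chow (adjusted p = 7.7e-05) and -0.56 ± 0.08 on high-fat diet (adjusted p = 0.0027), and HF24 was 0.48 ± 0.08 above C24. Pvt1, the neighbour of Myc, rose with time on chow at both probes, by 0.59 ± 0.11 and 0.46 ± 0.08 (adjusted p = 0.0067 and 0.0062). Lncpint, a long RNA that restrains invasion in tumour cells, was lower in HF24 than in C24 at both probes, by -0.82 ± 0.14 and -0.75 ± 0.12 (adjusted p = 0.0071 and 0.0060).

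Oip5os1, the RNA also known as Cyrano, which carries a site for miR-7, was -0.35 ± 0.05 lower in HF12 than in C12 (adjusted p = 0.0054); at 24 weeks its diet difference was 0.12 ± 0.05. Norad, which binds PUMILIO proteins, moved little. Its brightest probe stayed between 5.64 and 5.84 on all 8 arrays, and the 4 probes gave diet differences of -0.18 to -0.02 at 12 weeks, none called. At 24 weeks a Norad probe was called lower on high-fat diet (-0.22). With time on chow that probe was called higher (0.25) and another lower (-0.17). Those calls were lost in 6, 3 and 8 of the 8 fits with 1 array left out. Tug1 was -0.34 ± 0.09 in HF12 against C12 (adjusted p = 0.040), a call that was lost without either C12 array (-0.31 and -0.38) or either HF12 array (-0.42 and -0.27).

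The list of microRNA hosts held 7 probes; Dleu2, which was higher in HF24 than in C24, Rian and Mirg are described with other lists. Of the 7, 4 were lower and 0 higher on high-fat diet at 12 weeks (median -0.34, 16.0% of all kept probes lower), and 4 lower and 0 higher at 24 weeks (median -0.41, 17.1% lower); the latter became 2 without HF24 array 1. Mir99ahg, host of the miR-99a cluster, read -1.35 and -1.38 in C12, -1.89 and -1.93 in HF12, -2.23 and -2.25 in C24 and -3.27 and -3.23 in HF24 at one probe. The 4 groups were separate and in that order. This reading was lower on high-fat diet, by -0.54 ± 0.05 at 12 weeks (adjusted p = 0.00088) and by -1.01 ± 0.05 at 24 weeks (adjusted p = 0.00017). The second probe was -0.73 ± 0.09 lower on high-fat diet at 12 weeks (adjusted p = 0.0018), but its 24-week diet difference was -0.16 ± 0.09, not called.

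Mir100hg, which encloses miR-100 and miR-125b shown above, read 0.87 and 1.02 in C24 and 0.16 and -0.02 in HF24, a difference of -0.88 ± 0.09 (adjusted p = 0.0011). It rose by 0.83 ± 0.09 with time on chow (adjusted p = 0.00080), and C24 was its highest group. Dnm3os, the antisense RNA that yields miR-199a and miR-214, was -0.58 ± 0.07 lower in HF12 than in C12 (adjusted p = 0.0019), from 1.69 and 1.58 to 1.08 and 1.01. Its difference at 24 weeks was -0.15 ± 0.07 and was not called. Genes of microRNA processing moved both ways. Of 14, 4 rose and 5 fell with time on chow and 5 rose and 4 fell on high-fat diet. Of NM_ probes 26.8% rose in each time comparison, and 21.9% and 19.25% fell on chow and high-fat diet.

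The imprinted RNAs were lower in HF24, with the exception of Peg13. Of 9 probes 8 were lower and 0 higher in HF24 than in C24 (median -0.82, 17.1% of all kept probes lower), and 8 fell and 0 rose with time on high-fat diet (median -0.75, 22.8% lower). At 12 weeks 1 was higher and 2 were lower on high-fat diet, and 7 of the 9 showed an interaction, all toward a lower difference at 24 weeks. The probes stand for 5 genes, since Kcnq1ot1 has 4 and Airn 2.

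Kcnq1ot1 runs antisense through Kcnq1 from the paternal allele and silences its neighbours. Its probe with the highest level read 2.98 and 2.96 in C12, 2.66 and 2.77 in HF12, 2.82 and 2.75 in C24 and 1.90 and 2.04 in HF24. HF24 stood apart from the other 6 arrays. The 4 probes gave -0.82 ± 0.08, -0.88 ± 0.08, -1.05 ± 0.09 and -0.82 ± 0.06 for HF24 against C24, with adjusted p from 0.00045 to 0.00083, and all 4 calls held without any 1 array. Airn, the antisense silencer of Igf2r, was -0.46 ± 0.06 lower at its brighter probe (adjusted p = 0.0026); its dimmer probe was above background on 1 C24 array and on neither HF24 array.

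Rian and Mirg are maternally expressed and lie in the Dlk1-Dio3 domain on chromosome 12, where Mirg encloses a long series of microRNAs. Rian read 0.86 and 0.62 in C24 and -0.29 and -0.09 in HF24, a difference of -0.93 ± 0.13 (adjusted p = 0.0038), and Mirg read 1.28 and 1.25 against 0.01 and 0.25, a difference of -1.14 ± 0.09 (adjusted p = 0.00053). HF24 was the lowest group for both, and the HF24 arrays overlapped none of the others. With time on chow Mirg rose by 0.58 ± 0.09 (adjusted p = 0.0036), and on high-fat diet it fell by 0.70 on the log2 scale. Peg13, paternally expressed, differed by 0.17 ± 0.08 between HF24 and C24 and was called in no comparison.

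**Figure D4:**
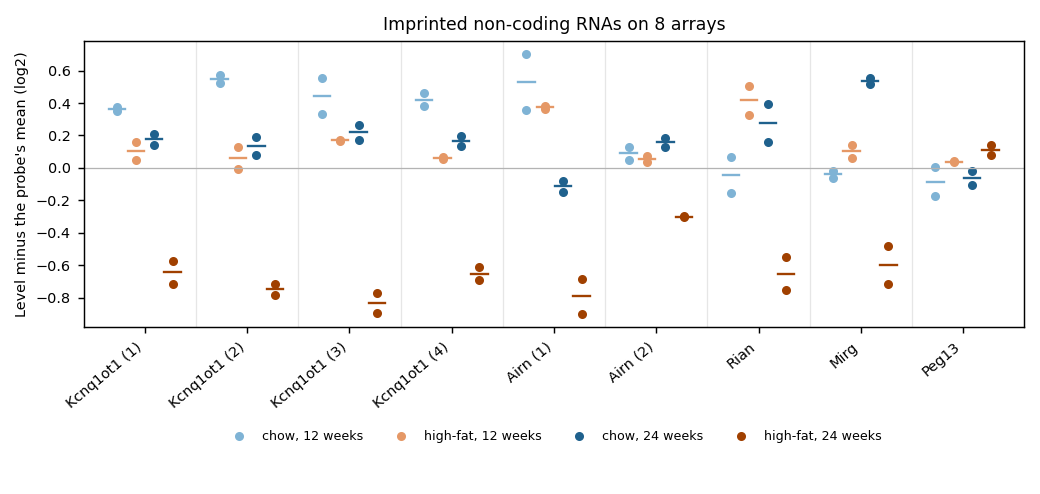
Level of each imprinted RNA probe on the 8 arrays minus that probe's mean (log2); points are arrays, bars are group means of 2, and numbers in brackets tell probes of a gene apart. The high-fat 24-week arrays lie lowest for every probe except Peg13.

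RNAs from the X inactivation centre were dim. Jpx, an activator of that centre, was called in no comparison, with differences of -0.36 to 0.06. Ftx was above background on both arrays of the 12-week groups, on 1 C24 array and on neither HF24 array; it was at least 1.02-fold lower in HF24 than in C24 (adjusted p = 0.024), a call lost without C24 array 2 or HF24 array 1.

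Of 9 probes for RNAs of the HOX clusters and other developmental loci, 4 rose and 3 fell with time on chow, where 45.7% of all kept probes were called. On high-fat diet 1 rose and 2 fell, where 45.2% of all kept probes were called. Hoxa11os, antisense to the distal limb gene Hoxa11, read -4.11 and -3.98 in C12, -4.46 and -4.47 in HF12, -1.75 and -2.02 in C24 and -2.58 and -2.71 in HF24. All 24-week arrays lay above all 12-week arrays. It rose by 2.16 ± 0.11 on chow (adjusted p = 4.1e-05) and 1.83 ± 0.11 on high-fat diet (adjusted p = 0.00011), and HF24 was -0.76 ± 0.11 below C24 (adjusted p = 0.0035). Hoxa11 itself rose by 3.61 ± 0.35 and 4.41 ± 0.35.

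Hoxb5os, antisense to Hoxb5, went down at 1 of its 2 probes: -0.92 and -1.15 in C12, -1.05 and -0.90 in HF12, -3.32 and -3.39 in C24 and -4.35 and -4.16 in HF24. The feeding times were far apart. The fall was -2.32 ± 0.11 on chow (adjusted p = 3.6e-05) and -3.28 ± 0.11 on high-fat diet (adjusted p = 1.6e-05), while the other, brighter probe changed by -0.01 ± 0.10 and 0.03 ± 0.10. Hoxb5 fell by 0.93 and 0.42 on the log2 scale. Hoxd3os1 fell with time on chow, by -1.0 ± 0.16 (adjusted p = 0.0042). Hottip, from the distal end of the HOXA cluster, was called in no comparison; its C12 arrays read -3.79 and -2.75.

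RNAs linked to myeloid cells were higher on high-fat diet wherever they were called by diet. Of 8 probes in this list 5 were higher and 0 lower at 12 weeks (median 2.92, 14.1% of all kept probes higher), and 5 higher and 0 lower at 24 weeks (median 0.67, 14.3% higher); the latter became 3 without HF24 array 1. F630028O10Rik, a long RNA read in macrophages and microglia, was at -2.90 and -3.06 in C12, 1.82 and 1.83 in HF12, -0.56 and -0.65 in C24 and 0.97 and 1.00 in HF24. The groups were separate, with C12 lowest and HF12 highest. It was 4.80 ± 0.07 higher on high-fat diet at 12 weeks (adjusted p = 1.8e-06), the largest difference among the members fitted in that comparison, and 1.59 ± 0.07 higher at 24 weeks (adjusted p = 0.00011). It also rose by 2.37 ± 0.07 with time on chow and fell by 0.84 on the log2 scale on high-fat diet.

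AI662270 was higher in HF12 than in C12 at both probes, by 3.19 ± 0.10 and 2.94 ± 0.09 (adjusted p = 7.7e-06 and 7.5e-06), and at 24 weeks by 0.93 ± 0.10 and 0.64 ± 0.09. C920009B18Rik was not well above background in C12 and at -2.52 and -2.58 in HF12, at least 8.42-fold higher (adjusted p = 5.3e-05); this bound sets the HF12 mean against the dimmest signal that counted as well above background on each C12 array. Its 24-week difference of 0.70 ± 0.17 was lost without HF24 array 1 (0.61) and was 0.45 to 0.95 over the leave-outs. AI504432 was likewise not well above background in C12 and at least 2.71-fold higher in HF12 (adjusted p = 0.0060); its C12 arrays read -6.38 and -7.81, and the fitted 2.90 ± 0.46 ran from 2.18 to 3.61 when 1 array was left out.

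Morrbid, which controls the lifespan of short-lived myeloid cells, was not called by diet. It rose with time at both probes, by 0.90 ± 0.09 and 0.72 ± 0.06 on chow and 1.01 ± 0.09 and 0.93 ± 0.06 on high-fat diet, with adjusted p from 0.00016 to 0.00059. Its brighter probe read 2.05 to 2.15 after 12 weeks and 2.81 to 3.03 after 24. Ptgs2os2, the RNA beside Ptgs2 known as lincRNA-Cox2, was 1.17 ± 0.30 higher in HF24 than in HF12 (adjusted p = 0.023), a call lost without either HF12 array (1.08 and 1.26) or either HF24 array (1.26 and 1.08).

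Macrophage markers moved in the same comparisons. Of 14, 13 were higher in HF12 than in C12 (median 3.73), and 12 were higher and 1 lower in HF24 than in C24 (median 1.22). The signed diet difference was lower at 24 weeks for all 14, down to -0.33 for the 1 that was lower in HF24. Their mean level was 0.198 to 0.203 on the C12 arrays, 3.93 to 3.95 on HF12, 2.06 to 2.08 on C24 and 3.63 to 3.64 on HF24. Adgre1, a surface receptor of macrophages, was 3.67 ± 0.09 and 0.99 ± 0.09 higher on high-fat diet at the earlier and later time, and Ptprc, the leukocyte antigen CD45, 3.78 ± 0.09 and 0.99 ± 0.09. The part of these cells in the values of the non-coding RNAs was not tested.

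**Figure D5:**
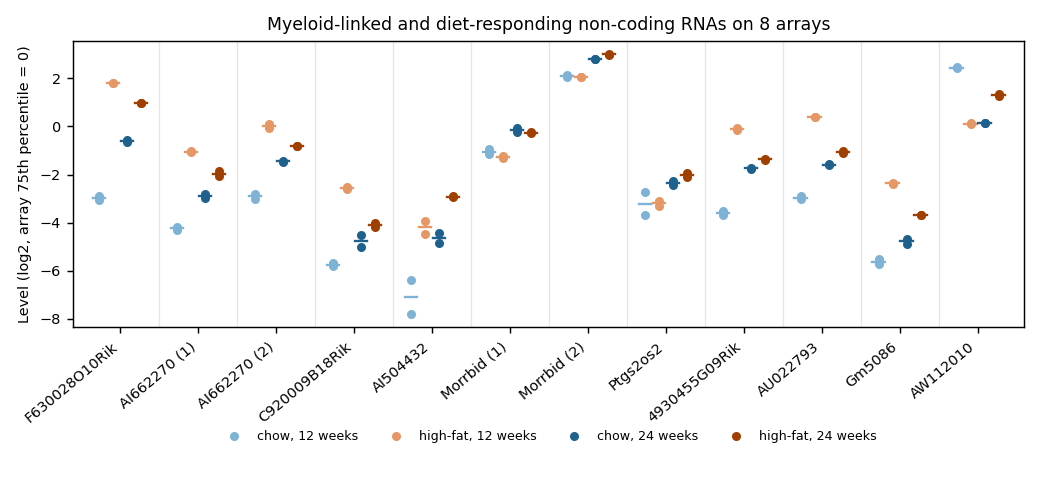
Level (log2, array 75th percentile at 0) of myeloid-linked and diet-responding non-coding RNA probes on the 8 arrays; points are arrays, bars are group means of 2. For F630028O10Rik, AI662270, 4930455G09Rik, AU022793 and Gm5086 chow at 12 weeks is lowest and high-fat at 12 weeks highest, and AW112010 shows the reverse order at 12 weeks.

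Promoter windows of the 2 myeloid-linked RNAs with entries are printed because both rose with diet; they run from 250 bases before to 50 bases after the RefSeq start in GRCm38.p6. Searched on both strands were AGGAAGT, a core bound by PU.1 and other ETS factors (in 9.57% of 27025 such windows), the core of the interferon-stimulated element, GAAA followed by any 2 bases and GAAA again (3.49%), and TTCNNNGAA, the element bound by STAT factors (8.47%). F630028O10Rik held 1 match, to the interferon-stimulated core on the minus strand at base -74, and C920009B18Rik 1, AGGAAGT on the plus strand at base -206; capitals mark them. AW112010, described next, held none of the 3. A match is a description of letters and not a bound site.
F630028O10Rik, chrX:96239676-96239975, plus strand: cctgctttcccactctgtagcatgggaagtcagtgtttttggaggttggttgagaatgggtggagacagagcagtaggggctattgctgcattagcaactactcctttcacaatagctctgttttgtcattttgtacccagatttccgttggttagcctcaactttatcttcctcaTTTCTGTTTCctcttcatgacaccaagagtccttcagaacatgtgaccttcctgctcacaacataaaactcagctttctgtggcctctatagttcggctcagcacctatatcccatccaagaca
C920009B18Rik, chr10:22306532-22306831, plus strand: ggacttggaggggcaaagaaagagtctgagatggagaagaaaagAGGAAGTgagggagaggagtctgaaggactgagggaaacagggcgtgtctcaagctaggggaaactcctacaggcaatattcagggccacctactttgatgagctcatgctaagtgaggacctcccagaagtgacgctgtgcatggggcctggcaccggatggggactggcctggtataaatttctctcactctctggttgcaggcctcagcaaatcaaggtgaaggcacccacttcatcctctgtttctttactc

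Several long RNAs outside that list followed the same order of groups. 4930455G09Rik read -3.54 and -3.69 in C12, -0.14 and -0.08 in HF12, -1.74 and -1.75 in C24 and -1.38 and -1.36 in HF24. Its diet difference was 3.50 ± 0.07 at 12 weeks (adjusted p = 2.0e-06). AU022793 was 3.36 ± 0.07 higher at 12 weeks and 0.53 ± 0.07 at 24 weeks (adjusted p = 2.2e-06 and 0.0031). Gm5086, not well above background in C12, was at least 9.11-fold higher in HF12 and 1.08 ± 0.10 higher in HF24 than in C24 (adjusted p = 0.00085).

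AW112010 and H2-Q5 were lower on high-fat diet at 12 weeks and higher at 24. AW112010, an endotoxin- and interferon-inducible transcript that also encodes a small protein, read 2.46 and 2.44 in C12, 0.09 and 0.15 in HF12, 0.13 and 0.15 in C24 and 1.34 and 1.28 in HF24. C12 stood highest, and HF12 and C24 overlapped. The diet difference was -2.33 ± 0.06 at 12 weeks (adjusted p = 3.0e-06) and 1.17 ± 0.06 at 24 weeks (adjusted p = 0.00013), and the interaction was 3.50 ± 0.08. H2-Q5, an MHC class I pseudogene whose probe may also read its close relatives, read 3.38 and 3.40, 1.72 and 1.71, 2.56 and 2.64, and 3.50 and 3.49 in the same order of groups. Its diet difference was -1.68 ± 0.06 at 12 weeks and 0.90 ± 0.06 at 24 weeks (adjusted p = 8.4e-06 and 0.00025).

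High C12 levels set the pattern of another set. 5930403L14Rik read -0.78 and -1.01 in C12 and between -3.46 and -2.83 on the other 6 arrays, with a 12-week diet difference of -2.54 ± 0.13 (adjusted p = 4.8e-05). B230208H11Rik read -0.71 and -0.79 in C12 and -3.86 to -3.18 elsewhere, a difference of -2.44 ± 0.19 (adjusted p = 0.00031). 2610016A17Rik fell in all 4 simple comparisons, from 0.35 and 0.25 in C12 to -1.71 and -1.55 in HF12, -2.24 and -2.44 in C24 and -2.98 and -3.02 in HF24. C12 was the highest group for all 3. The mean levels of the adipocyte (4.74 to 4.78), stromal and skeletal muscle markers were also highest in C12, and those of the other marker lists were not. The part of these cells in the values was not tested.

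Lncbate1, a long RNA of brown fat that supports thermogenic genes, was above background in the 12-week groups only by the rule of both arrays. It read -1.16 and -1.19 in C12, -3.98 and -4.18 in HF12, -7.19 and -7.40 in C24 and -3.48 and -5.64 in HF24. With time on chow it was at least 14.8-fold lower (adjusted p = 0.00073). Its 12-week diet difference, -2.91 ± 0.63 (adjusted p = 0.018), was lost without any 1 of the C12 or HF12 arrays (-3.01 to -2.81). At 24 weeks 1 HF24 array and neither C24 array was well above background; HF24 was at least 1.42-fold higher (adjusted p = 0.022), a call lost without either C24 array. The fitted log2 difference behind it is not a measured size, and it went from 2.73 to 1.65 without HF24 array 1 and to 3.81 without HF24 array 2. Adipocyte markers also fell over these comparisons, 9 of 10 in HF12 against C12 (median -2.73) and 9 of 10 with time on chow (median -5.43), among them Adipoq (-3.33 ± 0.08 and -9.18 ± 0.08). Their part in the Lncbate1 values was not tested.

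A set of members was lowest in HF24. 1700003E24Rik, a transcribed pseudogene of chromosome X, read -3.82 and -3.53 in C12, -4.36 and -4.04 in HF12, -2.54 and -1.72 in C24 and was not well above background in HF24. It was at least 6.49-fold lower there than in C24 (adjusted p = 0.00020). 4933400A11Rik and 2310043L19Rik, not well above background in HF24 either, were at least 3.22-fold and 1.80-fold lower than in C24 (adjusted p = 0.00023 for each). 8430431K14Rik read -1.23 and -1.40 in C24 against -3.54 and -3.31 in HF24, a difference of -2.11 ± 0.11 (adjusted p = 0.00015). 5430431A17Rik fell by 1.86 on the log2 scale in the same comparison, and by 2.57 with time on high-fat diet.

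Smpx, probed here by a non-coding variant of the gene for a small muscle protein, had the same pattern. It read 0.55 on both C12 arrays, -0.21 and -0.09 in HF12, -1.49 and -1.41 in C24 and -3.76 and -3.81 in HF24. The 4 groups were separate. Its HF24 minus C24 difference was -2.34 ± 0.07 (adjusted p = 5.0e-05), and the probe for the coding transcript gave -2.69 ± 0.17. All 8 skeletal muscle markers were lower in HF24 than in C24 (median -1.87) and fell with time on both diets; Myog, a muscle differentiation factor, was -1.75 ± 0.06 in the former. Keratinocyte and Schwann cell markers were lower in HF24 as well, 4 of 5 (median -2.78) and 5 of 5 (median -1.35). The part of these cells in the values of the non-coding RNAs was not tested.

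At 2-fold, members were called higher in HF24 than in C24 about as often as all kept probes, as given above. Gm14207 read -2.60 and -2.64 in C24 and -1.53 and -1.58 in HF24, a difference of 1.06 ± 0.10 (adjusted p = 0.00098), and it rose by 2.44 ± 0.10 with time on high-fat diet. Gm15612 and Gm17762 were well above background in HF24 only, and so had to differ: they were at least 4.77-fold and 2.65-fold higher than in C24 (adjusted p = 0.0036 and 0.0078). Their HF24 arrays were far apart, -3.89 and -1.73 for Gm15612 and -2.65 and -4.66 for Gm17762, with the bright array not the same one. When 1 of them was left out, the fitted difference from C24 ran from 3.45 to 5.61 for Gm15612 and from 2.61 to 4.62 for Gm17762. Gm21859, which also met the background rule through HF24 alone, was at least 11.6-fold higher there than in HF12 (adjusted p = 0.010), a call lost without HF12 array 2 (5.43 on the fitted log2 scale, against 5.51); its C24 arrays read -7.15 and -3.35.

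Antisense RNAs were paired with the genes in their symbols, without a check of position. Both were called in a minority of pairs, and most of those went the same way. For 54 members named as antisense to 52 measured genes, 19 were called at 12 weeks by diet, 20 at 24 weeks, and 34 and 23 with time on chow and high-fat diet; the shares of all kept probes were 30.1%, 31.5%, 45.7% and 45.2%. The partner was called in 22, 24, 26 and 32 of the 54 pairs, in the same order. Both the member and its partner were called for 8, 8, 17 and 14 pairs, of which 5, 6, 12 and 9 went the same way. The joint calls that unrelated probes would give were not counted, so these counts do not show a link within pairs. Across the 54 pairs, read on the same arrays, the differences of member and partner had Pearson's r of 0.089 and 0.25 by diet at 12 and 24 weeks and 0.50 in each time comparison. Bach2os was 3.27 ± 0.33 higher in HF12 than in C12 (adjusted p = 0.00088), while Bach2, a repressor of lymphocyte differentiation, was -0.63 ± 0.10. Abhd11os fell with time from 2.33 and 2.29 in C12 and 2.31 and 2.37 in HF12 to 0.55 and 0.51 in C24 and -0.16 and -0.09 in HF24. Its differences were -1.78 ± 0.06 and -2.46 ± 0.06 (adjusted p = 1.4e-05 and 6.6e-06), and those of Abhd11 were -0.35 ± 0.06 and 0.11 ± 0.06. Tomm6os met the background rule through C12 alone, which its selection required to differ, and was not well above background in either 24-week group, at least 1.15-fold lower in C24 than in C12 (adjusted p = 0.00083), and Tomm6 changed by -0.09 ± 0.07.

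Where a non-coding variant and the coding transcript of its gene were both called, they went the same way. Of 34 pairs, 13 and 9 had the variant called by diet at 12 and 24 weeks. With time on chow and high-fat diet 15 and 14 did. The shares of all kept probes were 30.1%, 31.5%, 45.7% and 45.2%, in the same order. Both probes were called for 5, 6, 9 and 9 pairs, and in each of these pairs the directions were the same. Most of the variants called by diet at 12 weeks thus had a coding probe that was not called. Zfp207, which encodes a zinc finger protein and whose variant was above background on 1 of the C24 arrays, fell with time on chow at its variant probe by 1.29 on the log2 scale (SE 0.13, adjusted p = 0.00072), while its coding probe gave 0.12 ± 0.06 and was not called. Such probes may share sequence with the coding transcript. Ncf1, a cytosolic subunit of the phagocyte NADPH oxidase, had a variant probe that was well above background in HF12 alone, so its place among the members already required a difference; it was at least 1.49-fold higher there than in C12, and the coding probe was 4.69 ± 0.09 higher.

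Where a gene had more than 1 member probe, the probes often did not share a call by diet. For 58 genes with 126 probes, the median spread between probes of a gene was 0.19 to 0.20 in the 4 simple comparisons. The median absolute difference of the members was 0.24 and 0.25 by diet at 12 and 24 weeks. It was 0.35 and 0.28 with time on chow and high-fat diet. Every probe of the gene was called the same way for 9 and 7 genes in the diet comparisons at 12 and 24 weeks, and for 20 and 22 genes in the time comparisons on chow and high-fat diet. Only some probes of the gene were called for 17 and 21 genes by diet, and for 18 and 14 with time. Probes of 1 gene were called in opposite directions for 0 genes by diet and for 1 gene in each time comparison, Norad on chow. The widest spread by diet at 24 weeks, 2.36, belonged to Miat, and that with time on high-fat diet, 3.30, to Hoxb5os.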

How the data were processed

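RNA was labelled with a single dye, per the labels' protocols, and hybridised to 8 Agilent mouse arrays. The deposited scanner files hold, per the file headers, spot intensity from Agilent Feature Extraction 11.0.1.1, including a processed signal from which background was already subtracted; the authors' deposited value table holds log2 values that equal the log2 processed signal plus a constant per array (-9.99 to -9.79; column medians -1.44 to -1.33; no centring of genes was found), and 1113 members were in it.

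Control spots were dropped, as were 192 probes that the scanner software marked as outliers in at least 1 scan, and spots of a probe averaged; log2 processed signal was scaled by subtracting each array's 75th percentile. The 37650 probes well above background on both arrays of at least 1 group were fitted with limma 3.58.1 (R 4.3.3; lmFit and eBayes, 1 mean per group, all 8 arrays, residual degrees of freedom 4, prior 1.95), with Benjamini-Hochberg adjustment over all of them; the fit was tested on simulated data. With 2 arrays against 2 no exact permutation test can go below p = 0.333, so the limma fit, which borrows spread across probes, is the test used. The number of arrays limits the precision.

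Gene names and types came from RefSeq GRCm38.p6 by accession; the array files use another build, so none of their coordinates are given. Where a group was not well above background on either array, differences from it are given as bounds; fitted values of such probes, printed where arrays were left out and for interactions, are not measured sizes. Members, lists and named genes were chosen with earlier results of these data known. The rule for names took members of the lists, the 8 largest rises and falls in each comparison, 6 antisense and 6 variant pairs, and the 10 brightest probes; which of those were described in full was decided after their values were seen. Alternatives were other scalings, filters, variance models, probe choices and left-out arrays; counts per list without 1 array were added after seeing the data.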

Additional observations from a re-analysis of the deposited data

Results flagged for a closer look

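The following non-coding RNAs have a diet difference that changed between 12 and 24 weeks by the interaction test of the limma fit (Benjamini-Hochberg adjusted p under 0.05 over all 37650 probes, 2 arrays a group). Each value is the log2 diet difference at 24 weeks minus that at 12 weeks. Among all members 30.4% were called this way, and among all kept probes 28.0%.

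Several were higher on high-fat diet mainly at 12 weeks: F630028O10Rik (-3.21), 4930455G09Rik (-3.12), AU022793 (-2.83), Bach2os (-2.55), and AI662270 (-2.27 and -2.30 at its 2 probes). Others were lower on high-fat diet at 24 weeks alone or more than at 12 weeks: Miat at 1 probe (-2.23), 8430431K14Rik (-1.85), Smpx (-1.64), Rian (-1.39), 5430431A17Rik (-1.39), Mirg (-1.28), Neat1 (-1.07 and -0.80), Hoxb5os at 1 probe (-0.96), Kcnq1ot1 (-0.78, -0.56, -0.46 and -0.40), Abhd11os (-0.69), Mir100hg (-0.54), Mir99ahg at its brighter probe (-0.46) and Airn at its brighter probe (-0.42).

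Members lower on high-fat diet at 12 weeks with a smaller or opposite difference at 24 weeks were AW112010 (3.50), H2-Q5 (2.57), 5930403L14Rik (2.42), B230208H11Rik (2.21), 2610016A17Rik (1.27), Snord7 (0.97), Dleu2 (0.81), Mir99ahg at its other probe (0.57), Oip5os1 (0.47) and Dnm3os (0.44). Members higher on high-fat diet at 24 weeks only were Gm14207 (1.07), Scarna13 (0.87), Snora47 (0.83), Snhg20 (0.48) and Snhg5 (0.47).

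For another set at least 1 of the 4 groups was not well above background on either array, so that the fitted value is not a measured size and only the call is given weight: 1700003E24Rik (-4.30), C920009B18Rik (-2.50), Gm5086 (-2.19), 2310043L19Rik (-1.86), 4933400A11Rik (-1.77), the Ncf1 variant (-1.38), Tomm6os (1.57), Gm17762 (3.70), Gm15612 (5.62) and Lncbate1 (5.64). The Ncf1 variant, Tomm6os, Gm17762 and Gm15612 met the background rule through 1 group alone, so a difference was required of them.

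Some of these calls did not hold when 1 array was left out. Gm17762 was not called without any 1 of the C12, HF12 or C24 arrays (3.39 to 4.0), Tomm6os without C12 array 2 or any 1 of the HF12 and C24 arrays (1.28 to 1.69), and Kcnq1ot1 at the probe with -0.40 without any 1 array but HF12 array 1 (-0.46 to -0.33). The Kcnq1ot1 probe with -0.46 lost its call without HF24 array 1 (-0.42), and Airn without HF12 array 1 (-0.40) or HF24 array 1 (-0.42). Mir100hg lost it without C12 array 1 (-0.50), either HF12 array (-0.55 and -0.53), C24 array 2 (-0.47) or HF24 array 2 (-0.45). Dnm3os, Mir99ahg at the probe with 0.57 and Snhg5 lost theirs in 5, 5 and 6 of the 8 such fits, at 0.38 to 0.47, 0.48 to 0.60 and 0.39 to 0.49.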

How the results depend on the processing

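Of 380 called values of the members eligible to be named, 243 kept their sign and their call under every alternative run and 0 reversed; of 6578 alternative values 693 missed the threshold. The count of members that differed by diet at 12 weeks, 319, was 187 without C12 array 1, 168 without HF12 array 1 and 202 without HF12 array 2, and 168 to 314 over the 8 such fits. By diet at 24 weeks the range was 230 to 306, with time on chow 389 to 517, with time on high-fat diet 297 to 447 (297 without HF12 array 1) and for the interaction 221 to 289 (221 without HF12 array 1). The causes were not tested. The median level of the members relative to NM_ probes was -2.65, -2.65 after quantile normalization and -2.16 after normexp correction. Without a filter on dim probes the calls were 221, 232, 480, 404 and 237 in the order of comparisons above. With the replicate number as a block they were 276, 277, 487, 418 and 297. Same-numbered arrays deviated together little (correlations -0.0911 to 0.155). This gave no sign of pairing by number, but it cannot exclude a shared batch. Dim members, whose signal lies near background, had the larger SE: the median SE was 0.21 for the dimmest 371 and 0.079 for the brightest 372.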
